A study of Rattus norvegicus with 10 samples.

Results

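The synaptonemal complex genes are the genes for the protein scaffold that holds paired chromosomes together in meiosis, here Sycp1, Sycp2, Sycp3, Syce1, Syce2, Tex12, Hormad1 and Hormad2. They were found by gene symbol, taking probe sets that carry the symbol of a single gene, and of several such probe sets the one with the highest mean over all 10 arrays. Of the 8 genes 7 had a value, out of 18166 genes measured in all, and each of the 7 had 1 probe set. Tex12 was not analysed here, because both of its probe sets also carry the symbol of another gene. The RNA came from testes of the Zucker rat, in which fa is the leptin receptor allele that makes homozygotes obese, and 10 Affymetrix arrays were run, each on 1 sample. There were 4 arrays of under-developed testes from obese animals, 4 of testes of normal development from obese animals and 2 of testes of normal development from lean animals. Animals of every group were sexually mature at 14 weeks and carry the model label Zucker (fa/fa). That label and the protocol text on obese animals also stand on the lean samples, so the labels do not settle what genotype the lean animals had. Sample titles number them as biological replicates without saying that each came from a separate animal, so the p-values here reflect only how much these samples vary. Arrays are numbered below by their replicate number within the group.

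In meiotic prophase each chromosome folds its sister chromatids along a protein axis, and the axes of paired homologues are then joined along their length like the sides of a zip. SYCP2 and SYCP3 build the axis, which is called the lateral element once pairing is complete, and HORMAD1 and HORMAD2 sit on axes that are not yet joined and leave when they are. SYCP1 forms the transverse filaments between the axes, and SYCE1, SYCE2 and TEX12 form the central element in which the filaments meet. In the adult testis these genes are mainly active in spermatocytes, and mice without Sycp1, Sycp3 or Hormad1 make no sperm.

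The start regions of 3 of these genes are shown, 1 each for the filament, the axis core and the HORMA-domain proteins. Whether they bear on the differences between arrays was not tested. The windows run from 250 bases before to 50 bases after the start used in a table of RefSeq on assembly GRCr8, and of the 8 genes 6 had an entry. That start is the edge of the annotated gene for Sycp3, but lies inside the gene by 24 to 54 bases for Sycp1, Sycp2 and Tex12, by 565 for Hormad2 and by 2100 for Hormad1. Capitals mark the E-box CACGTG, a site type of basic helix-loop-helix factors, the E2F site GCGGGAA, a site type of E2F factors, and the CCAAT box CCAAT, each searched on both strands.
Sycp1, chr2:193145131-193145430, minus strand: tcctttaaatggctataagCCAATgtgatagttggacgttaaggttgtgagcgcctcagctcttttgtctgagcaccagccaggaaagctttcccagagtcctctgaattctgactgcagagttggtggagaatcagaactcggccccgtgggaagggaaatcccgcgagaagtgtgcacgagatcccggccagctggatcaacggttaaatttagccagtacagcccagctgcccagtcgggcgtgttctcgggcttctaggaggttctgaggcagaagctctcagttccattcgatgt
Sycp3, chr7:24761226-24761525, plus strand: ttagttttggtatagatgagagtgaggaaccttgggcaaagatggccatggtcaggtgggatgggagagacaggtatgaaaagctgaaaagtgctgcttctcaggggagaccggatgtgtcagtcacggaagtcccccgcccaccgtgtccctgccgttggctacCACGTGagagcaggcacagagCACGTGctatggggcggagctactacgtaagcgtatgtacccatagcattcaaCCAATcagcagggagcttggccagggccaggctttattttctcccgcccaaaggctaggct
Hormad1, chr2:185805422-185805721, plus strand: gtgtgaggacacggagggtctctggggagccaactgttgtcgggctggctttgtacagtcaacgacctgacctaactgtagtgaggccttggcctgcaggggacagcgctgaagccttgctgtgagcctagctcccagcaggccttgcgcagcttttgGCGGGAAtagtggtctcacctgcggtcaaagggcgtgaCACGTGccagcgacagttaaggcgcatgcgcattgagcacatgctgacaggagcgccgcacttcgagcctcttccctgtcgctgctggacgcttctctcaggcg
The E-box stood in the windows of Sycp3 (2 matches), Hormad1 and Tex12, and in 6.65% of all 27457 windows of this length. The E2F site stood in those of Sycp2, Hormad1 and Tex12, and in 4.47% of all windows. The CCAAT box stood in those of Sycp1, Sycp2 and Sycp3, and in 37.7% of all windows. The core AACNG of MYB factors, not capitalised, stood in all 6, but also in 81.4% of all windows. No match of the first 3 motifs was found in the Hormad2 window. The motifs were chosen with the sequences in view, and a match is a description of letters only. The genes lie apart on chromosomes 2 (Sycp1 and Hormad1), 3 (Sycp2), 7 (Sycp3), 1 (Syce1), 19 (Syce2), 8 (Tex12) and 14 (Hormad2).

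The 4 under-developed arrays were unlike each other, and the one labelled under-developed replicate 4 resembled the normal arrays, so it is unsettled whether its label is right. Every fitted difference of the under-developed group includes it unless stated. Over all genes, which are not independent replicates, under-developed arrays 1, 2 and 3 correlated with the 6 normal arrays at r of at most 0.862, 0.950 and 0.737, while array 4 lay between 0.994 and 0.995, the range over pairs of normal arrays being 0.994 to 0.997. Values are therefore given for every array. Differences of single arrays are log2 values minus the mean of the 4 normal obese arrays, so that −1 stands for a 2-fold lower level on the array's scale. The deposited values come without detection calls, so how far a low value lies above the background of its probe set is unknown.

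All 7 genes measured were lower on under-developed arrays 1, 2 and 3 than on any of the 6 normal arrays, which held for 26.7% of all genes, and on array 4 each lay within the range of those 6. Array 3 was the lowest, array 1 next and array 2 closest to normal, in that order for 7 of 7 genes, an order held by 15.8% of all genes. At least 2-fold lower than the normal obese mean were 7 of 7 genes on array 1 (against 15.6% of all genes), 1 of 7 on array 2 (6.18%), 7 of 7 on array 3 (16.8%) and 0 of 7 on array 4 (0.0055%). In RNA of whole testes, fewer cells of a type and less RNA per cell cannot be told apart.

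**Figure D1:**
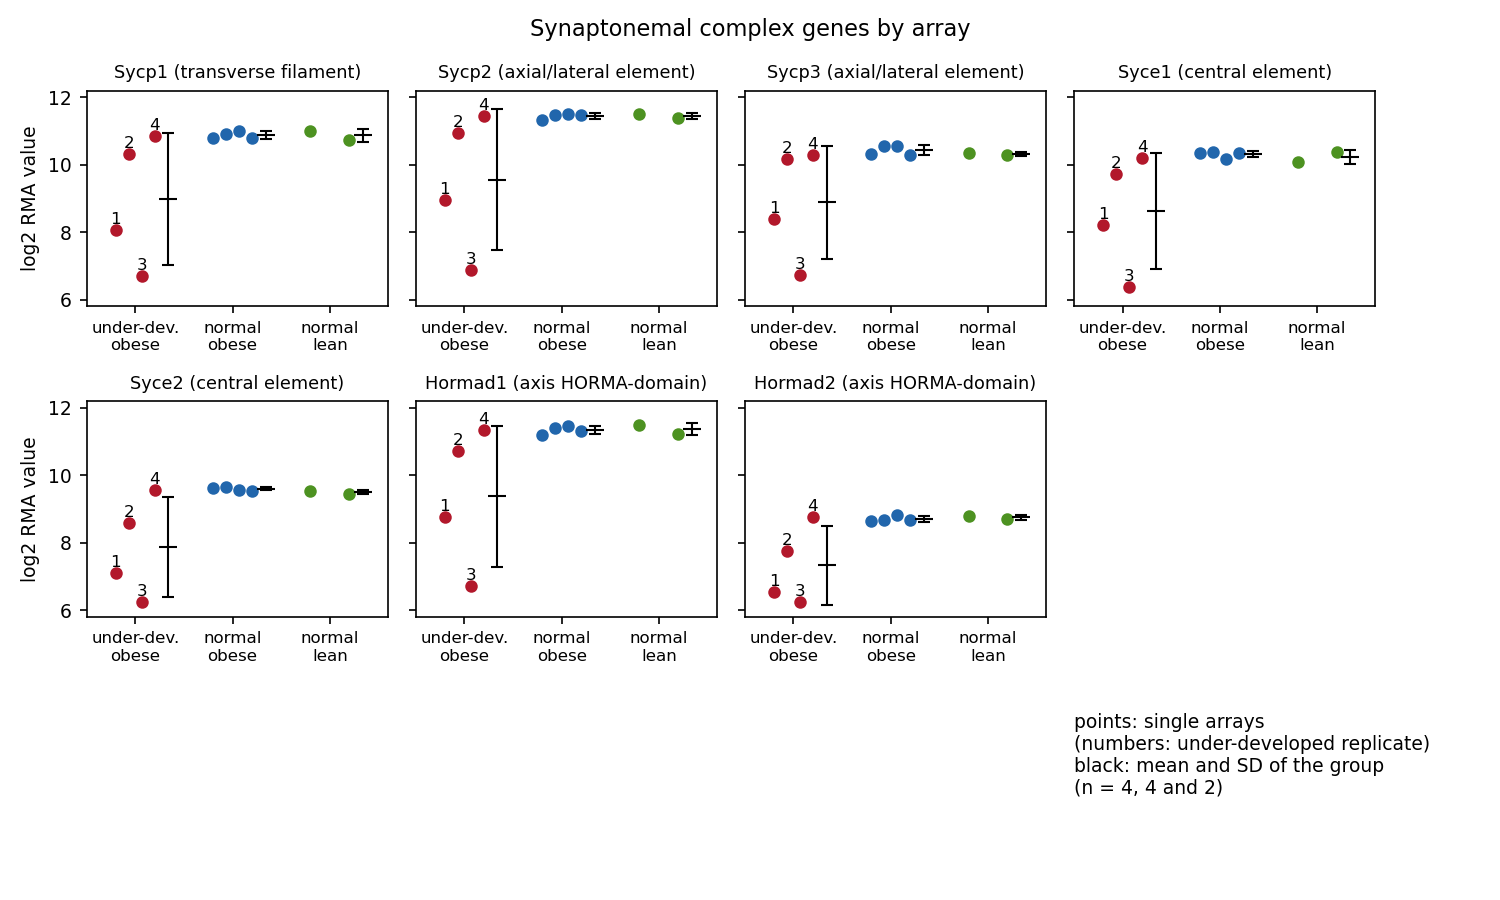
Log2 RMA values of the 7 synaptonemal complex genes on each array, in under-developed testes of obese rats (red, numbered by replicate), normal testes of obese rats (blue) and normal testes of lean rats (green), with the group mean and SD in black. Under-developed arrays 1 to 3 lie below all 6 normal arrays for each gene, and array 4 lies among them.

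Sycp1 encodes the transverse filament protein that bridges the axes. Sycp1 read 8.07, 10.31, 6.69 and 10.86 log2 on under-developed arrays 1 to 4, against 10.78, 10.92, 11.01 and 10.79 on the normal obese arrays and 11.01 and 10.73 on the normal lean arrays. Arrays 1, 2 and 3 stood 6.99-, 1.48- and 18.3-fold below the normal obese mean, and array 4 was inside the spread of the normal arrays. Of all genes, 1.22% had a lower difference on array 1, which placed Sycp1 lowest of the 7 there.

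The axis core genes Sycp2 and Sycp3 encode proteins that bind each other and form the lateral elements. Sycp2 read 8.97, 10.93, 6.87 and 11.45 log2 on under-developed arrays 1 to 4, against 11.34, 11.46, 11.52 and 11.47 on the normal obese arrays and 11.50 and 11.39 on the normal lean arrays. The difference on array 3 was −4.58 log2, or 23.9-fold, while array 4 did not depart from the normal obese mean (0.00 log2). Sycp3 read 8.39, 10.16, 6.73 and 10.28 log2 on under-developed arrays 1 to 4, against 10.32, 10.55, 10.56 and 10.29 on the normal obese arrays and 10.35 and 10.28 on the normal lean arrays. Sycp3 was the least reduced of the 7 on arrays 1 and 2, where it stood 4.12- and 1.21-fold below the normal obese mean. On array 2 its gap to the lowest normal array was 0.12 log2, about the SD of the normal obese arrays (0.14 log2, n = 4).

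The central element genes Syce1 and Syce2 encode proteins that hold the filament ends together. Syce1 read 8.22, 9.71, 6.38 and 10.20 log2 on under-developed arrays 1 to 4, against 10.35, 10.38, 10.18 and 10.36 on the normal obese arrays and 10.08 and 10.38 on the normal lean arrays. The under-developed arrays 1 to 3 were separated from the 6 normal arrays, among which lean array 1 was the lowest. Syce2 read 7.11, 8.59, 6.25 and 9.56 log2 on under-developed arrays 1 to 4, against 9.63, 9.65, 9.57 and 9.55 on the normal obese arrays and 9.54 and 9.45 on the normal lean arrays. Syce2 was the single gene of the 7 at least 2-fold lower on array 2 (2.02-fold), though by little more than Hormad2 (1.92-fold).

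Hormad1 and Hormad2 encode HORMA-domain proteins that mark unjoined axes, where HORMAD1 also promotes chromosome breaks and pairing. Hormad1 read 8.77, 10.72, 6.71 and 11.33 log2 on under-developed arrays 1 to 4, against 11.20, 11.39, 11.47 and 11.31 on the normal obese arrays and 11.49 and 11.23 on the normal lean arrays. With a 24.8-fold lower level, Hormad1 had the largest difference of the 7 on array 3, where 1.88% of all genes went lower. Hormad2 read 6.55, 7.76, 6.24 and 8.76 log2 on under-developed arrays 1 to 4, against 8.64, 8.68, 8.83 and 8.68 on the normal obese arrays and 8.80 and 8.70 on the normal lean arrays. Hormad2 differed least of the 7 on array 3 (5.54-fold lower), and arrays 1 and 3 lay close together for it (−2.16 and −2.47 log2).

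On array 3 the levels stood at 4.03% (Hormad1) to 18.1% (Hormad2) of the normal obese level, and all 7 genes read below that array's median gene (6.97 log2).

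The 7 genes thus shared the order of the arrays but not the size of the difference. The SD over the 7 differences was 0.285 log2 on array 1, 0.254 on array 2, 0.758 on array 3 and 0.0709 on array 4. The differences ran from −2.80 (Sycp1) to −2.04 (Sycp3) on array 1, from −1.01 (Syce2) to −0.27 (Sycp3) on array 2, from −4.63 (Hormad1) to −2.47 (Hormad2) on array 3 and from −0.15 (Sycp3) to 0.06 (Hormad2) on array 4. The order among genes was not the same from array to array. On array 3 Hormad1 was the lowest and Hormad2 the highest, while on array 2 they were neighbours in rank only (−0.62 and −0.94 log2). By the root mean square difference over the 10 arrays from the mean of the other 6, Syce1 was the most typical gene (0.18 log2) and Hormad2 the least (0.53 log2). On array 3 the 7 genes read from 6.24 (Hormad2) to 6.87 (Sycp2) log2, while their normal obese means ran from 8.71 (Hormad2) to 11.45 (Sycp2). Genes with a higher normal level thus tended to differ more there. Whether low values near the background shaped this spread and ranking was not tested.

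**Figure D2:**
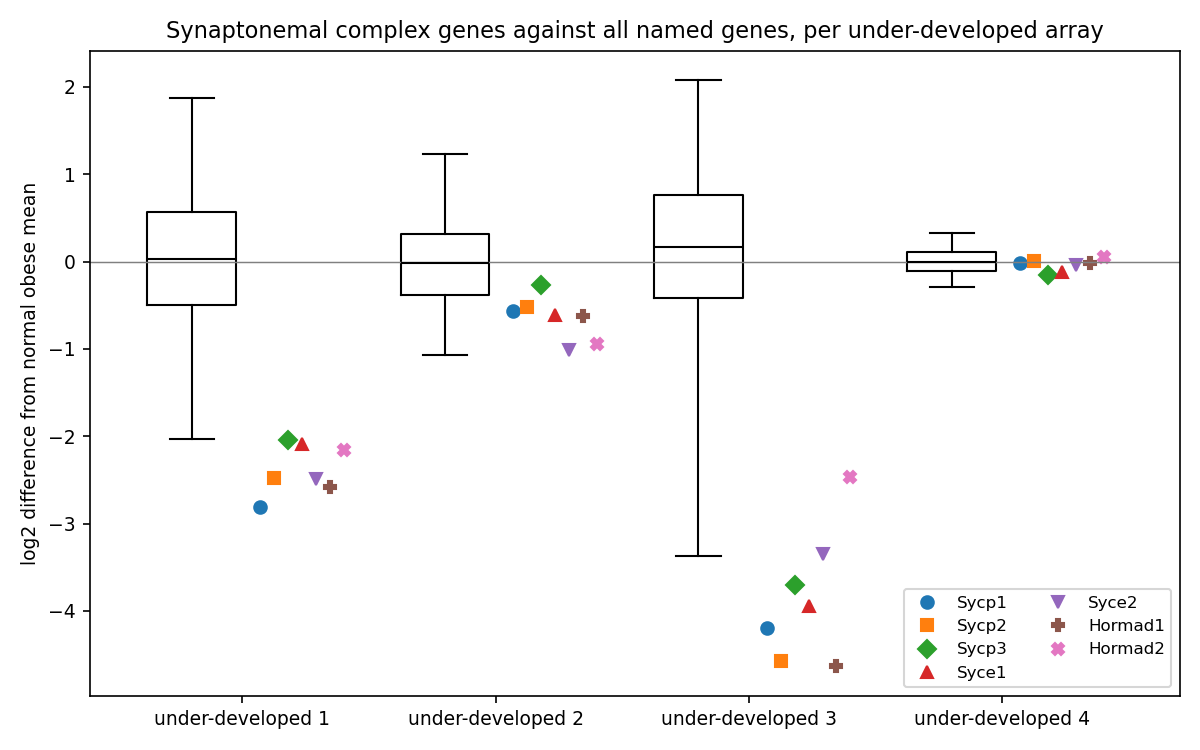
Log2 difference from the normal obese mean on each under-developed array, for the 7 synaptonemal complex genes (symbols) and for all 18166 genes (boxes: quartiles and median, whiskers: 5th to 95th percentile). On array 1 all 7 genes lie below the 5th percentile, on array 3 those other than Syce2 and Hormad2 do, and on array 4 all lie near 0.

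The series was built to set under-developed against normal testes, and the first test takes both from obese animals. With all arrays, 0 of the 7 genes passed limma at an adjusted p under 0.05, and 0.0% of all genes were called. At an unadjusted p under 0.05, 5 of the 7 were lower (Sycp1, Syce1, Syce2, Hormad1 and Hormad2), against 22.3% of all genes lower. The fitted differences, under-developed minus normal, had a median of −1.72 log2 against 0.06 for all genes. The fitted difference of Sycp1 was −1.89 ± 0.80 (SE; limma adjusted p = 0.0971). For Sycp2 it was −1.89 ± 0.85 (SE; limma adjusted p = 0.112) and for Sycp3 −1.54 ± 0.69 (SE; limma adjusted p = 0.110). Syce1 had −1.69 ± 0.71 (SE; limma adjusted p = 0.0952) and Syce2 −1.72 ± 0.61 (SE; limma adjusted p = 0.0715). Hormad1 had −1.96 ± 0.86 (SE; limma adjusted p = 0.104) and Hormad2 −1.38 ± 0.48 (SE; limma adjusted p = 0.0712). The groups were separated in all 4 arrays for Sycp3 alone, by 0.01 log2, and 10.4% of all genes were separated downward in this way.

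The SD of the under-developed arrays ran from 1.16 (Hormad2) to 2.09 (Hormad1) log2, against 0.05 (Syce2) to 0.14 (Sycp3) log2 on the normal obese arrays (n = 4 each). Without under-developed array 4, all 7 genes fell, with limma adjusted p from 0.00111 (Hormad2) to 0.0249 (Sycp3), and 26.4% of all genes (4790) were called lower and 29.6% (5381) higher. That split moved to 12731 lower and 2239 higher with centring on ribosomal protein genes, and to 15567 and 1020 on Sertoli genes. The fitted differences were then −2.61 (Hormad1) to −1.86 (Hormad2) log2. Because array 4 was picked out with its values known, such calls carry no weight of their own. With each array centred on the mean of 13 Sertoli genes, 7 of 7 genes were called lower by limma with all arrays, as were 71.2% of all genes, with 2.04% higher. Under that scaling the median of all genes moved to −0.91 log2 and that of the 7 genes to −2.70 log2. With 53 ribosomal protein genes for centring, these medians were −0.45 and −2.24 log2. Under that centring 0 of 7 passed limma with all arrays, and 0 of all genes measured were called, so this count is not particular to the 7. Limma with array weights, which let arrays count unequally, called 7 of 7 lower, against 25.9% of all genes lower and 28.4% higher. The weights are estimated from these same values. With them the median of the 7 genes was −2.22 log2, close to the −2.28 log2 without array 4. The calls with array weights are thus no separate support either.

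Under-developed testes of obese rats were also set against the normal testes of lean rats. This comparison uses the same 4 under-developed arrays, so it adds no separate evidence on them. With all arrays 0 of 7 genes passed limma, with 0.0% of all genes called, and 1 (Hormad2) was lower at an unadjusted p under 0.05, against 14.3% of all genes. The fitted differences ran from −1.98 (Hormad1) to −1.42 (Hormad2) log2, with limma adjusted p from 0.154 to 0.242. Without under-developed array 4, limma called 6 of 7 lower, against 23.2% of all genes. Sycp3, with a difference of −1.89 log2, did not pass (limma adjusted p = 0.0689).

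Normal testes of obese and of lean rats were compared to look at obesity without under-development. The mean levels of the 7 genes differed by at most 0.12 log2 (Sycp3). They were 10.88 ± 0.11 (SD, n = 4) in obese and 10.87 ± 0.19 (SD, n = 2) in lean rats for Sycp1, and 8.71 ± 0.08 and 8.75 ± 0.07 for Hormad2. In the fit of all arrays 0 of 7 genes passed limma (0.0% of all genes called). An unadjusted p under 0.05 was reached by 0 of 7, against just 0.121% of all genes higher and 0.319% lower. That fit takes its spread partly from the under-developed arrays and gave 95% intervals as wide as −2.39 to 2.35 log2 (Hormad1). When limma was fitted to just the 6 normal arrays, 0 of 7 passed (0.0055% of all genes called) and 0 of 7 had an unadjusted p under 0.05, against 3.18% of all genes higher and 3.1% lower. The intervals of the difference, obese minus lean, were −0.23 to 0.25 for Sycp1, −0.18 to 0.18 for Sycp2 and −0.12 to 0.35 for Sycp3. They were −0.15 to 0.32 for Syce1, −0.06 to 0.27 for Syce2, −0.26 to 0.22 for Hormad1 and −0.23 to 0.14 log2 for Hormad2. A difference of up to 0.35 log2 (Sycp3) lies within these bounds, which do not show that the groups are equal. The obese and lean values did not overlap for Syce2 alone, by 0.01 log2, which is 1 of 7 genes where 15.0% of all genes did not overlap. The signs of differences as small as those of Sycp1, Sycp2, Syce1, Hormad1 and Hormad2 changed with the scaling, the replicate block or the array left out.

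**Figure D3:**
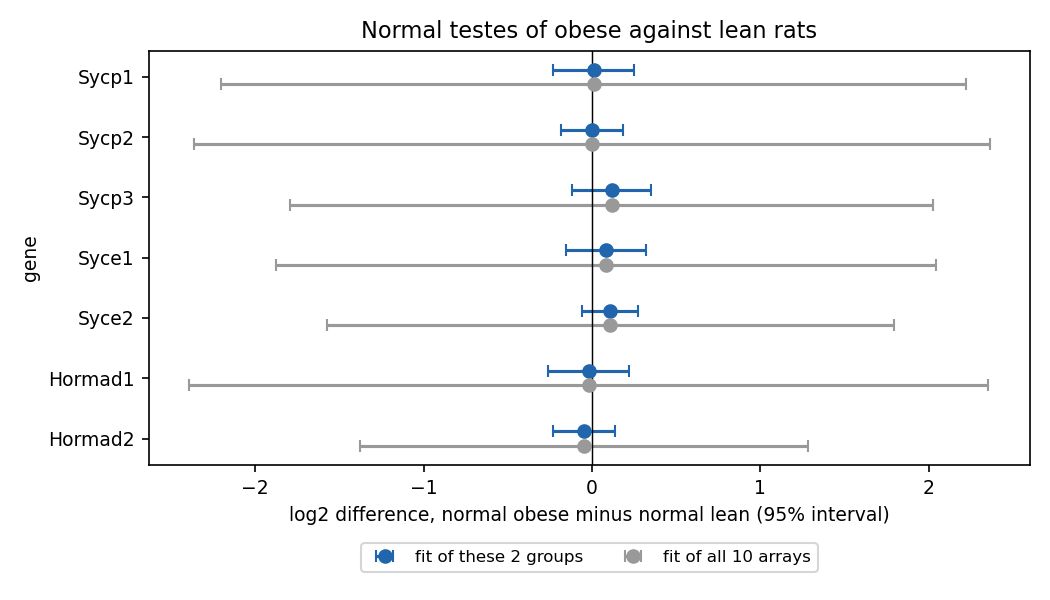
Difference in log2 value, normal obese minus normal lean testes, for the 7 synaptonemal complex genes, with 95% intervals from limma in the fit of these 2 groups (blue) and in the fit of all 10 arrays (grey). All intervals include 0, and those of the fit of these 2 groups stay within −0.26 and 0.35 log2.

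Other genes of the synaptonemal complex and meiotic prophase were described as a list of 42 genes, covering cohesins of the axis, break formation, strand exchange, crossover and telomere attachment, of which 34 had a value. The other 8 were not analysed here. With all arrays, 0 of 34 passed limma between under-developed and normal testes when both came from obese rats. At an unadjusted p under 0.05, 23 were lower and 1 higher, against 22.3% and 24.4% of all genes. The median fitted difference of the 34 was −0.90 log2. Without under-developed array 4, limma called 29 lower and 1 higher, against 26.4% and 29.6% of all genes. The gene called higher was Smc1a, the cohesin subunit of dividing somatic cells, whose meiotic counterpart Smc1b was among the 29. Smc1a differed by 1.31, 0.87, 1.95 and −0.04 log2 on under-developed arrays 1 to 4 and Smc1b by −1.49, −0.36, −4.32 and −0.02. On arrays 1 and 2 Smc1a lay below the mean of the Sertoli list (1.36 and 1.02 log2), so its direction there flips when arrays are centred on Sertoli genes. The 4 genes that did not pass were Trip13, Mei4, Prdm9 and Mei1. Smc1a, Smc1b and these 4 were chosen for naming with their values known.

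The list holds a further pair of central element genes. Syce3, which links the filaments to the central element, differed by −1.81, −0.61, −3.08 and −0.09 log2 on under-developed arrays 1 to 4. Six6os1, which binds SYCE1 in the central element, differed by −3.13, −0.78, −2.90 and −0.08. Six6os1 was thus lower on array 1 than on array 3, unlike the 7 members.

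Of the listed genes with the largest fitted differences, Stag3, the meiosis-specific cohesin subunit of the axis, differed by −2.42, −0.94, −4.28 and 0.12 log2 on under-developed arrays 1 to 4. Spdya, an activator of Cdk2 needed at telomeres, differed by −2.35, −0.73, −4.97 and 0.03, the lowest of the list on array 3. Spata22, which acts with Meiob on single-stranded DNA in recombination, differed by −3.12, −1.30, −3.84 and −0.02. The break-forming enzyme gene Spo11 differed by −2.68, −0.95, −3.76 and 0.23 and Ankrd31, which helps to place breaks, by −2.39, −1.46, −3.23 and −0.19. Their fitted differences were −1.88 (Stag3), −2.01 (Spdya), −2.07 (Spata22), −1.79 (Spo11) and −1.82 (Ankrd31) log2, with limma adjusted p from 0.0702 to 0.112. Each was lower on arrays 1 and 3 than on array 2, and on array 4 each lay between −0.19 and 0.23 log2 of the normal obese mean.

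**Figure D4:**
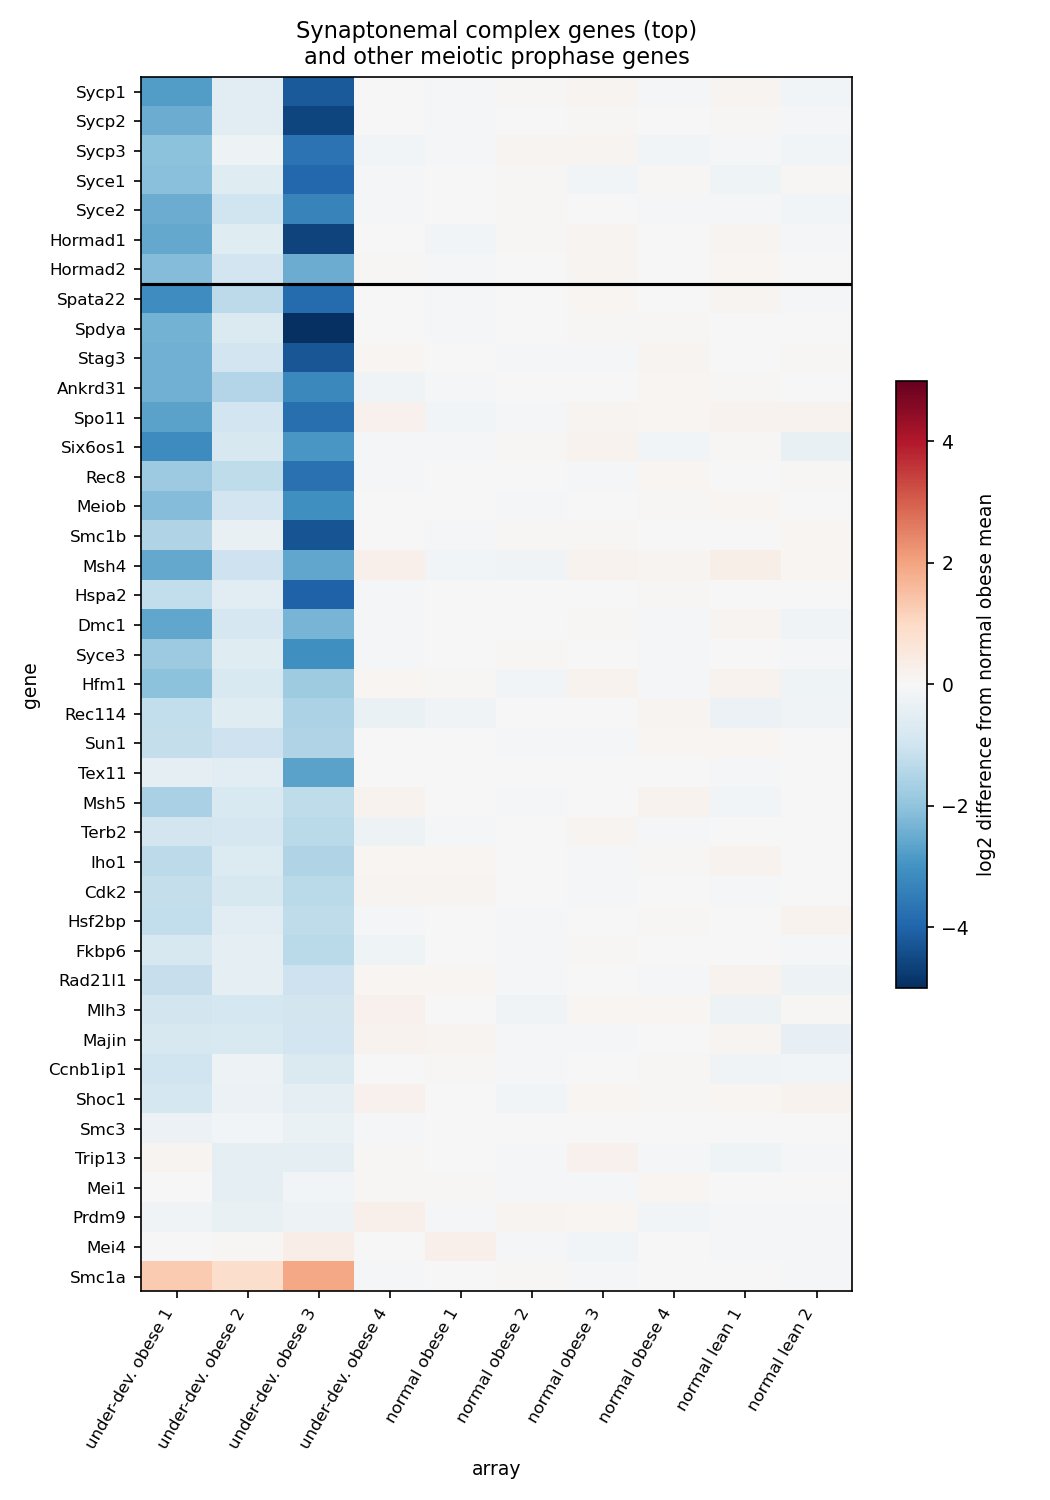
Log2 difference from the normal obese mean on each of the 10 arrays (columns) for the 7 synaptonemal complex genes (above the line) and the 34 other meiotic prophase genes, ordered by fitted difference (below it). Blue marks lower values, which lie in the columns of under-developed arrays 1 to 3, and Smc1a at the bottom is the gene with higher values there.

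By the root mean square difference over the 10 arrays, the 5 genes outside the 7 with the profile most like their mean were Asb14 (0.06 log2), Prc1 (0.07), Wdr88 (0.08), Lekr1 (0.09) and C8h3orf62 (0.10). The mean of the 7 differed by −2.38, −0.65, −3.84 and −0.04 log2 on under-developed arrays 1 to 4. Asb14 differed by −2.28, −0.67, −3.92 and 0.07 and Prc1, which cross-links the microtubules of the spindle midzone in cell division, by −2.36, −0.77, −3.81 and 0.00. The likeness covers these 10 arrays, 3 of which carry nearly all of the difference.

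Marker lists were set beside the 7 genes on the same arrays. The pachytene spermatocyte list (10 of 10 genes measured) differed by a mean of −1.98, −0.67, −4.17 and −0.03 log2 on under-developed arrays 1 to 4. The round spermatid list (10 of 10) differed by −1.96, −0.88, −4.62 and −0.07 and the elongating spermatid list (10 of 10) by −2.81, −0.64, −3.92 and −0.06. The spermatogonia list (14 of 15) differed by 0.03, −0.09, 0.19 and −0.05, but its genes went both ways, from −2.52 (Sohlh2) to 2.52 (Kit) log2 on array 3. Of its first 3 genes, markers of undifferentiated spermatogonia, Zbtb16 differed by 0.61, 0.30, 1.95 and −0.20, Gfra1 by −0.41, −0.54, −0.08 and −0.23 and Id4 by −0.37, −0.21, −0.02 and −0.23. The mean of the 7 genes was below that of the pachytene list on array 1 and above it on array 3, a difference that was not tested. Piwil1, the PIWI protein gene of spermatocytes, differed by −4.05, −1.09, −4.55 and 0.01, and Ldhc, the lactate dehydrogenase of germ cells, by −1.50, −0.26, −4.58 and −0.04.

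The means of the Sertoli, Leydig, macrophage, myoid and endothelial lists were higher than the normal obese mean on under-developed arrays 1 to 3. The Leydig genes were mixed, with 5, 3 and 6 of 9 at least 2-fold higher on these arrays and 0 at least 2-fold lower. Of all genes, 15.5%, 7.56% and 19.2% were at least 2-fold higher there, and 15.6%, 6.18% and 16.8% at least 2-fold lower. On array 3 the Leydig genes ran from −0.21 to 2.84 log2. The Sertoli list (13 of 15) differed by 1.36, 1.02, 1.49 and 0.04 log2 on under-developed arrays 1 to 4, the Leydig list (9 of 9) by 1.24, 0.71, 1.35 and −0.24 and the macrophage list (9 of 9) by 2.17, 1.30, 2.04 and −0.09. Of the first 3 Sertoli genes, which encode transcription factors, Sox9 differed by 0.24, 0.54, 0.19 and 0.09, Wt1 by 1.79, 1.26, 2.11 and −0.01 and Gata4 by 1.04, 0.46, 1.38 and 0.12, while Amh of the same list differed by −0.35, −0.32, −0.17 and −0.22. Of the first 3 macrophage genes, Cd68 differed by 2.55, 1.64, 2.99 and −0.21, Cd163 by 3.11, 2.16, 3.33 and 0.31 and Csf1r by 2.82, 1.61, 2.47 and −0.06, while Aif1 of the same list differed by −1.25, −0.50, −2.01 and −0.08. Sohlh2, Kit, Amh and Aif1 were chosen for naming with their values known. The myoid list (4 of 6) differed by 1.32, 1.00, 2.01 and −0.15, the endothelial list (3 of 6) by 1.15, 0.89, 1.32 and 0.01 and the epididymis list (7 of 7) by 0.25, 0.21, 0.08 and 0.13. The Leydig, endothelial, epididymis and spermatogonia means lay below the Sertoli mean on arrays 1 to 3, and the myoid mean on arrays 1 and 2, so these values turn negative when arrays are centred on Sertoli genes. The summed linear level of the Sertoli list ranged from 11098 to 32440 on the under-developed arrays, against 10375 to 11284 on the normal obese and 9908 to 11091 on the normal lean arrays. That of the pachytene list ranged from 2237 to 37462, against 38022 to 39364 and 37843 to 38493. That of the macrophage list ranged from 2893 to 17460, against 2728 to 3391 and 2523 to 2987. RMA values hold no zeros, so no marker was listed at 0. The part of the cell make-up in the differences of the 7 genes was not tested.

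**Figure D5:**
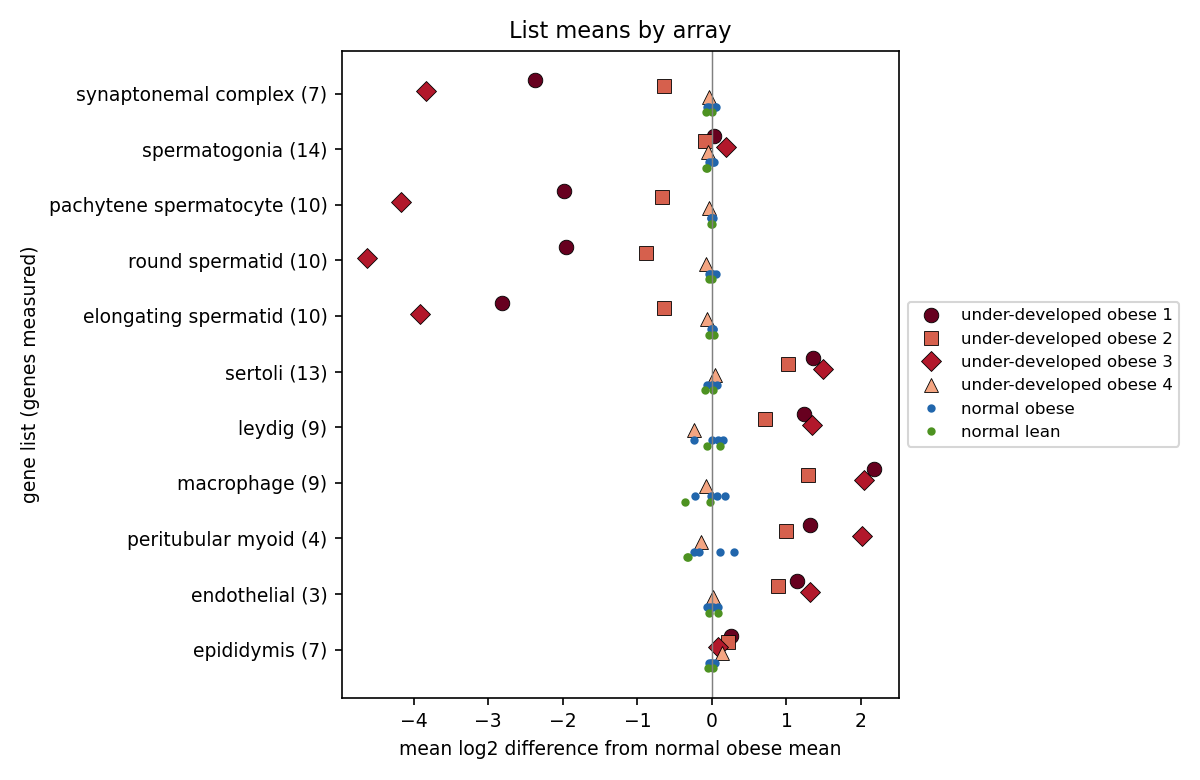
Mean log2 difference from the normal obese mean for the 7 synaptonemal complex genes and for 10 marker lists (number of genes measured in brackets), for each under-developed array (large symbols), normal obese array (blue) and normal lean array (green). On under-developed arrays 1 to 3 the synaptonemal complex, spermatocyte and spermatid lists lie to the left of 0, the Sertoli, Leydig, macrophage, myoid and endothelial lists to the right, and the spermatogonia list near 0.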

How the data were processed

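The deposited values are log2 expression per probe set, which the authors made with RMA per the submitters' processing notes. The RMA settings and version are not given in the sources used here. They were used as deposited: 36685 probe sets, of which 18511 carry 1 gene symbol in GEO's platform annotation, 575 several and 17599 none, giving 18166 genes. Symbols were updated through gene numbers to RefSeq assembly GRCr8 for 18394 probe sets. For the 291 genes with several probe sets, the one with the highest mean was kept. Array medians lay between 6.14 and 6.38 over all 36685 probe sets, and between 6.87 and 7.02 over the 18166 genes. The number of arrays limits the precision.

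limma 3.58.1 in R 4.3.3 (lmFit, eBayes) was fitted to all 10 arrays with a mean per group, and p-values were adjusted over all 18166 genes by Benjamini-Hochberg (threshold 0.05). Tables and figures used Python 3.11.15, numpy 2.4.6, pandas 2.3.3 and matplotlib 3.10.9. The script was tested on simulated data. Alternatives covered scaling, offset, filters, probe sets, moderation, array weights, the replicate block and leaving out arrays. Combining the loss of under-developed array 4 with other scalings was chosen after seeing the data. The members, gene lists and motifs were chosen with earlier results of these data known, and no list test was made. Listed genes outside the members were named where they are central element genes or had the largest fitted differences, 5 genes by likeness to the members' mean, and markers in the order of their lists, up to 3 each. With each gene's group mean subtracted, correlations over genes were 0.00692 to 0.260 for same-numbered under-developed and normal obese samples. Differently numbered ones gave −0.289 to 0.191. These values do not settle whether the numbers pair samples, and the reported fit treats samples as unpaired.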

Additional observations from a re-analysis of the deposited data

Results flagged for a closer look

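For the 49 genes that the naming rules picked, 98 groups of 4 arrays were checked for a single array far from the other 3. Chance alone marks about 1 in 20 such groups. The genes chosen for naming with their values known (Smc1a, Smc1b, Trip13, Mei4, Prdm9, Mei1, Sohlh2, Kit, Amh and Aif1) were not checked. None of the 7 synaptonemal complex genes was marked. Sox9, a Sertoli cell transcription factor gene, read 5.57 log2 on normal obese array 3, against 5.98, 5.97 and 5.99 on the other normal obese arrays. Prc1, whose profile was among those most like the mean of the 7 genes, read 10.98 log2 on normal obese array 2, against 11.03 on each of the other 3.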

How the results depend on the processing

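The differences of the 7 genes between under-developed and normal testes of obese rats were negative under every alternative run, from −3.90 to −0.82 log2; 140 such values stayed short of the limma threshold and 49 passed it. With array weights limma called 9862 genes, 7 members and 29 listed meiotic genes, and with Sertoli centring 13311, 7 and 33, against 0, 0 and 0 in the reported fit. Leaving out single arrays gave 0 to 10171 genes, 0 to 7 members and 0 to 30 listed genes, the highest without under-developed array 4. Without that array and with another scaling, chosen after seeing the data, limma called 9901 genes (centred on the median), 14970 (ribosomal), 16587 (Sertoli) and 10101 (quantile), with 7 members in each. Over these 4 scalings the genes called lower ranged from 5379 to 15567 and those called higher from 1020 to 4722. Against lean testes the same 7 genes also stayed negative, and limma called 9620 genes and 7 members with array weights, and 0 to 8866 genes and 0 to 6 members without single arrays, the highest again without array 4. Without array 4 the scalings gave 8910 genes and 6 members (median), 14888 and 7 (ribosomal), 16376 and 7 (Sertoli) and 8766 and 5 (quantile). The cause of these changes was not tested. Without array 4, the fitted difference of Sycp1 within obese rats moved from −1.89 to −2.52 log2 and its SE from 0.80 to 0.68.

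Between normal testes of obese and lean rats, limma called 1 gene with array weights and 1 in the fit of these groups alone, against 0, and 0 members in each. Signs turned where differences lay near 0. The difference of Hormad1, −0.02 log2 as reported, was 0.14 with the replicate block and −0.15 to 0.11 without single arrays. Hormad2 ranged from −0.10 to 0.0040 without single arrays, and Syce1 from −0.064 to 0.23, with −0.018 under ribosomal centring. Sycp1 was −0.0065 with median centring, −0.093 with ribosomal, −0.029 with Sertoli centring and −0.13 to 0.15 without single arrays. Sycp2 was −0.00012 with array weights, −0.015 with median centring, −0.10 with ribosomal, −0.037 with Sertoli centring and −0.057 to 0.059 without single arrays. With 1 lean array left out, the other is assumed to vary like the other groups. The replicate block called 0 genes and 0 members in each comparison. The lack of detection calls limits what low values can show.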
